A study of Mus musculus with 20 samples.

Results

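A set of 32 genes of DNA replication and mitosis, found by gene name among the 50600 gene entries of both deposited tables, was followed through eosinophils and macrophages of mouse colon. All 32 were present in both tables. Of these genes, 11 act at the entry into S phase or in DNA synthesis, 12 encode mitotic cyclins, kinases, checkpoint proteins or parts of the ubiquitin machinery that ends mitosis, and 9 build or move chromosomes on the spindle.

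The mice were C57BL/6 wild type, either naive or bearing tumors after an induction called CAC in the labels. Eosinophils and macrophages were sorted by flow cytometry from digested colons, which gave 20 libraries. Naive colon provided 2 eosinophil and 5 macrophage libraries, and tumors provided 7 and 6. RNA was read by CEL-Seq, which tags the 3′ end of polyadenylated transcripts. The sources used here give no age, sex or sorting gates and do not say whether libraries came from separate animals. The p-values therefore measure the spread between these libraries, which may be technical. In sorted bulk samples, fewer cycling cells and less cell cycle RNA per cell cannot be told apart.

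As background, a cell commits to division when cyclin D and cyclin E kinases release E2F factors from the retinoblastoma protein. E2F then raises the genes of origin licensing and nucleotide supply, and later the DREAM and B-Myb-FOXM1 complexes raise the mitotic genes through CCAAT boxes and a cell cycle homology region (CHR). Mature eosinophils leave the bone marrow as cells that no longer divide, whereas colonic macrophages are renewed mainly from blood monocytes and keep a limited capacity to divide in the tissue.

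The promoters of 6 of these genes are shown because the CCAAT box, the CHR and the E2F motif are the sequence features through which the members are known to be raised together. Each is the 120 bases that end where the gene begins in RefSeq (GRCm38.p6), printed 5′ to 3′ on the strand of the gene, with motif letters in capitals. The windows are Mki67 at chr7:135716380-135716499 (minus strand), Top2a at chr11:99024190-99024309 (minus), Bub1b at chr2:118598091-118598210 (plus), Ccnb2 at chr9:70421555-70421674 (minus), Mcm3 at chr1:20820313-20820432 (minus) and Mcm6 at chr1:128359706-128359825 (minus). None of the 6 windows overlaps the transcribed part of its gene in GENCODE M21.
Mki67: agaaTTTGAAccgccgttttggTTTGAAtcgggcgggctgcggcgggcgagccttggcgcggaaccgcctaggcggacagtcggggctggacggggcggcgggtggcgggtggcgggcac
Top2a: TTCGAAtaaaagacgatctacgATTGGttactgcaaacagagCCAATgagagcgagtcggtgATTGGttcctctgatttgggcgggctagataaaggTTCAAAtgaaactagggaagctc
Bub1b: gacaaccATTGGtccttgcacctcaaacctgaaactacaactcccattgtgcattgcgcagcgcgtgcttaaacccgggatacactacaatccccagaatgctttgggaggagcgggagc
Ccnb2: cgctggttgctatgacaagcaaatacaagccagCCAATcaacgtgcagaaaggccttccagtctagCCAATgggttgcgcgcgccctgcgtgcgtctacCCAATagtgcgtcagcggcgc
Mcm3: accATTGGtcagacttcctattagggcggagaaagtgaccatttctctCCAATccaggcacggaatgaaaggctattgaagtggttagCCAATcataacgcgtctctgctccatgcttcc
Mcm6: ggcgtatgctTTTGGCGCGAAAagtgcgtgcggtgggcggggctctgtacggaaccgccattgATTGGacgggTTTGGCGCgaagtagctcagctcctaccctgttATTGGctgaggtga
Capitals mark the CCAAT box on either strand, the CHR letters on either strand, and the E2F letters on either strand, each spelled out in the next paragraph. Mki67 held 2 CHR matches in its window and no CCAAT there, Top2a held 2 CHR and 3 CCAAT matches, and Ccnb2 held 3 CCAAT matches. Mcm6 held 3 E2F matches, of which 2 lie on opposite strands and share letters, so that they print as 1 longer run of capitals.

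Across the 250 bases before the gene start, 27 members had a RefSeq promoter entry, and Mcm4, Ccna2, Aurkb, Tpx2 and Stmn1 had none. CCAAT, searched on both strands, was in the promoters of 23 of these 27 members and in 33.8% of all 32851 RefSeq promoters. The CHR letters TTTGAA or TTCGAA were in 10 of 27, beside 17.1% of all promoters. The E2F letters TTTCCCGC, TTTGGCGC, TTTCGCGC or TTTGCCGC were in 4 of 27 (Cdk1, Mcm5, Mcm6 and Mcm7), beside 1.86% of all promoters. These are matches of letters in a window, and no binding was measured.

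The libraries held 1477255 to 8520874 reads. Macrophage markers (14 genes) summed to 810 to 1496 CPM (reads scaled to a common library total) in eosinophil libraries and to 19681 to 33683 in macrophage libraries. Eosinophil markers (13 genes) summed to 2439 to 12839 CPM in eosinophil and 146 to 296 in macrophage libraries. Epithelial markers (15 genes, of which 14 had a read and Olfm4 was at 0 in each group) summed to 1924 to 5882 CPM in tumor eosinophils, 1735 and 2797 in naive eosinophils, 571 to 3762 in naive macrophages and 1427 to 2489 in tumor macrophages. B and plasma cell markers, with all 15 present in every group, reached 76572 CPM in naive and 73379 in tumor macrophages. Neutrophil and granulocyte precursor markers (14 genes) summed to 4508 to 14205 CPM in eosinophils, most of it Retnlg, with Elane, Mpo and Prtn3 at 0 in naive but not in all tumor eosinophils. In macrophages these markers summed to 36.1 to 601 CPM. The part of these other transcripts in the results below was not tested, except where a value is given.

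In tumor eosinophils the level of Mki67 was higher than in eosinophils from naive colon, and it was the one member that passed the test. Mki67 encodes Ki-67, the coat protein of mitotic chromosomes that pathologists stain to count dividing cells (chr7:135689784-135716361, minus strand). It stood at 52.8 and 70.0 normalised reads in the 2 naive libraries, and its lowest, median and highest values in the 7 tumor libraries were 94.6, 168 and 210. Every tumor library lay above both naive libraries. On the log2 scale tumor exceeded naive by 1.38 ± 0.34 (SE; limma, adjusted p = 0.0352). Here and below p-values carry the Benjamini-Hochberg adjustment over all genes tested, and a gene is called when its adjusted p is under 0.05. The call was lost when naive library 1 or 2, or tumor library 1, 2, 3, 4 or 7, was left out (adjusted p up to 0.155 by limma, log2 change 1.18 to 1.58), or when low genes were not filtered out (adjusted p = 0.0521).

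Of the 32 members, 29 reached 10 normalised reads in at least 2 eosinophil libraries and were tested. Aurkb, Bub1 and Cdc20 did not. Ccne1, Ccna2, Bub1b and Nusap1 were under 10 in both naive libraries, so they passed this filter only through tumor libraries. The 1 member called higher and 0 called lower stand beside 4.63% of all 12984 genes called in either direction, 2.42% called higher and 2.21% called lower. A single call in 29 is near that background, and 4 members had an unadjusted p under 0.05, against 2557 of all genes tested. The median log2 change over the 29 was 0.75, and 25 of them lay above 0, whereas the median over all genes was 0.008 with 50.4% above 0. In 4 members (Rrm1, Ccna2, Mki67 and Kif11) every tumor library lay above both naive ones, beside 7.32% of all genes tested, and in 0 every tumor library lay below, beside 9.77%.

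Among the 11 genes of S phase, none was called. Rrm1 and Rrm2, the large and small subunits of ribonucleotide reductase, which makes deoxyribonucleotides, had log2 changes of 1.19 ± 0.40 (adjusted p = 0.114, limma) and 1.26 ± 0.67 (adjusted p = 0.331). Rrm1 measured 19.1 and 14.5 normalised reads in naive and 24.8, 40.4 and 52.6 (lowest, median, highest) in tumor eosinophils, without overlap. Ccne1, the cyclin that drives the start of S phase, had the widest error of this group, 1.70 ± 1.03, on 12 reads in 1 naive library and 0 in the other. The helicase subunits Mcm2 to Mcm7 unwind origins. Their log2 changes ran from −0.66 ± 0.63 for Mcm4 to 0.84 ± 0.62 for Mcm5, and Pcna, the sliding clamp of the polymerases, was at −0.45 ± 0.35. The replication helicase and clamp genes thus lay on both sides of 0, and none of them was called.

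The mitotic cyclins, kinases and ubiquitin genes gave 9 tested members with log2 changes from 0.08 (Aurka) to 1.75 (Ube2c), none of them called. Ube2c, the ubiquitin-conjugating enzyme that works with the anaphase-promoting complex, measured 12.8 and 3.62 normalised reads in naive eosinophils, against 10.8, 26.6 and 41.9 (lowest, median, highest) in tumor eosinophils. The groups overlapped at 1 tumor library, and the change of 1.75 ± 0.59 had an adjusted p of 0.119 by limma. Ccna2, cyclin A2 of S and G2 phase, did not overlap between the groups (7.54 and 7.25 in naive, 11.7 to 38.1 in tumor) and changed by 1.30 ± 0.52 (adjusted p = 0.188). The other members of this group had larger errors relative to their change. Birc5, the survivin subunit of the chromosomal passenger complex, was at 1.25 ± 0.89, Ccnb2, cyclin B2, at 1.15 ± 0.62, and Plk1, the polo-like kinase of mitotic entry, at 0.75 ± 0.93.

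Of the chromosome and spindle genes, Top2a, the topoisomerase that untangles sister chromatids, measured 284 and 274 normalised reads in naive eosinophils and 221, 765 and 1235 (lowest, median, highest) in tumors. Tumor library 5 lay below both naive libraries, library 7 between them and the other 5 above, and the log2 change was 1.06 ± 0.56 (adjusted p = 0.324, limma). Stmn1, the microtubule-destabilising protein stathmin, ran from 138 to 931 in tumor eosinophils, beside 117 and 214 in naive ones (1.06 ± 0.64, adjusted p = 0.396). Cenpa, the centromeric histone, was at −0.03 ± 0.31, and Tpx2, a spindle assembly factor, at −0.28 ± 0.30. Top2a and Stmn1 thus ranged widely among the tumor libraries, and their groups overlapped.

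**Figure D1:**
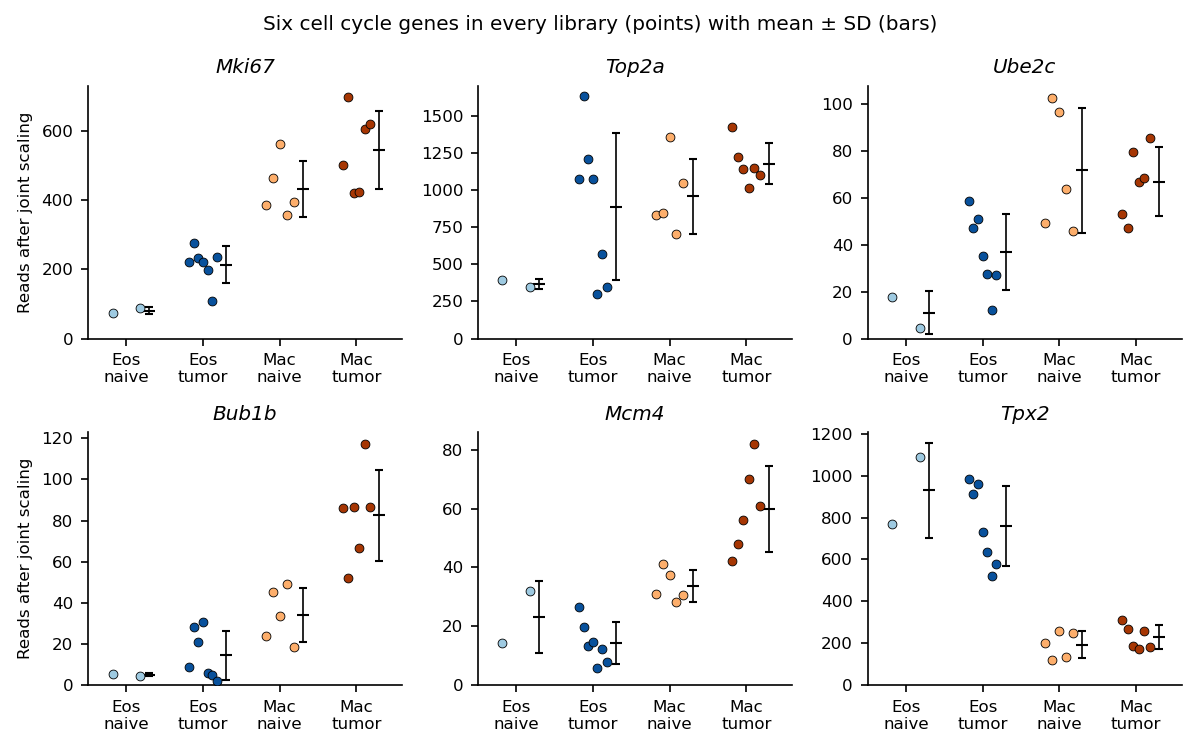
Levels of 6 cell cycle genes in each library (points), in reads after all 20 libraries were scaled together, on linear axes that start at 0, with the mean and SD of each group as bars. Mki67 lies at 72.6 and 87.9 in naive eosinophils and at 107 to 278 in tumor eosinophils, below every macrophage library, while Tpx2 lies higher in every eosinophil than in every macrophage library.

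That spread followed the library. Tumor eosinophil library 2 held the highest value of the group for 17 of 32 members, and libraries 5, 6 and 7 held the lowest for 9, 8 and 10. The members together summed to 878, 1204, 1028, 792, 405, 503 and 454 CPM in tumor libraries 1 to 7, and to 418 and 465 CPM in the naive ones. Libraries 1 to 4 and 6 lay above both naive libraries, library 7 between them and library 5 below both. That order of libraries 5 to 7 depended on the scaling: after joint scaling their sums were 2369, 2432 and 2436, all below the naive 2496 and 3134, while libraries 1 to 4 stayed above both naive libraries (4451 to 6702). Over the members, the median coefficient of variation was 53.3% in tumor eosinophils, 29.9% in naive eosinophils, 25.7% in naive macrophages and 19.1% in tumor macrophages.

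Other transcripts moved with these libraries. Epithelial markers summed to 5882, 5728 and 5596 CPM in tumor eosinophil libraries 1, 2 and 3, and to 2552, 1924, 2549 and 2800 in libraries 4 to 7. Without libraries 1, 2 and 3, a choice made after the values were seen, 26 members were tested. Their median log2 change fell to 0.31, 17 lay above 0, and 0 were called. For Mki67 the change was then 1.24, with an adjusted p of 0.116 by limma. Libraries 2 and 3 also had the largest mitochondrially encoded sums, 349220 and 351520 CPM, against 151870 to 251140 in the other tumor eosinophil libraries. Library 1 had 251140 CPM and naive library 2 had 245230. Mast cell markers (8 genes) summed to 238 to 1007 CPM in tumor eosinophils and to 61.6 and 63.8 in naive ones, and the sum was higher in libraries 4 to 7 than in libraries 1 to 3. Most of that sum was Hdc (53.0 and 58.0 CPM in naive, 215 to 1002.5 in tumor). Of 6 mast cell markers tested, 1 was called higher and 0 lower, and all 6 lay above 0. Macrophage markers summed to 810 and 955 CPM in naive and 849 to 1496 in tumor eosinophils, and of 11 tested 4 were called higher and 1 lower (median log2 change 1.53). Neutrophil and granulocyte precursor markers summed to 6348 and 11453 CPM in naive and 4508 to 14205 in tumor eosinophils, with 4 of 13 called higher and 0 lower (median 2.77). Most of these sums was Retnlg (6284 and 11399 CPM in naive, 4231 to 12977 in tumor). Elane, Mpo and Prtn3, at 0 in both naive libraries, ran from 0 to 200, 32.3 and 94.0 CPM in tumor eosinophils. Of the eosinophil markers 4 of 13 were called lower and 0 higher (median −1.13), with 6 above 0, up to 4.165. Of the epithelial ones 2 of 14 were called lower and 0 higher, with 11 above 0 (median 0.75). Of the B and plasma cell ones none of 14 was called, with 13 above 0 (median 1.16). The part of these transcripts in the member sums was not tested.

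**Figure D2:**
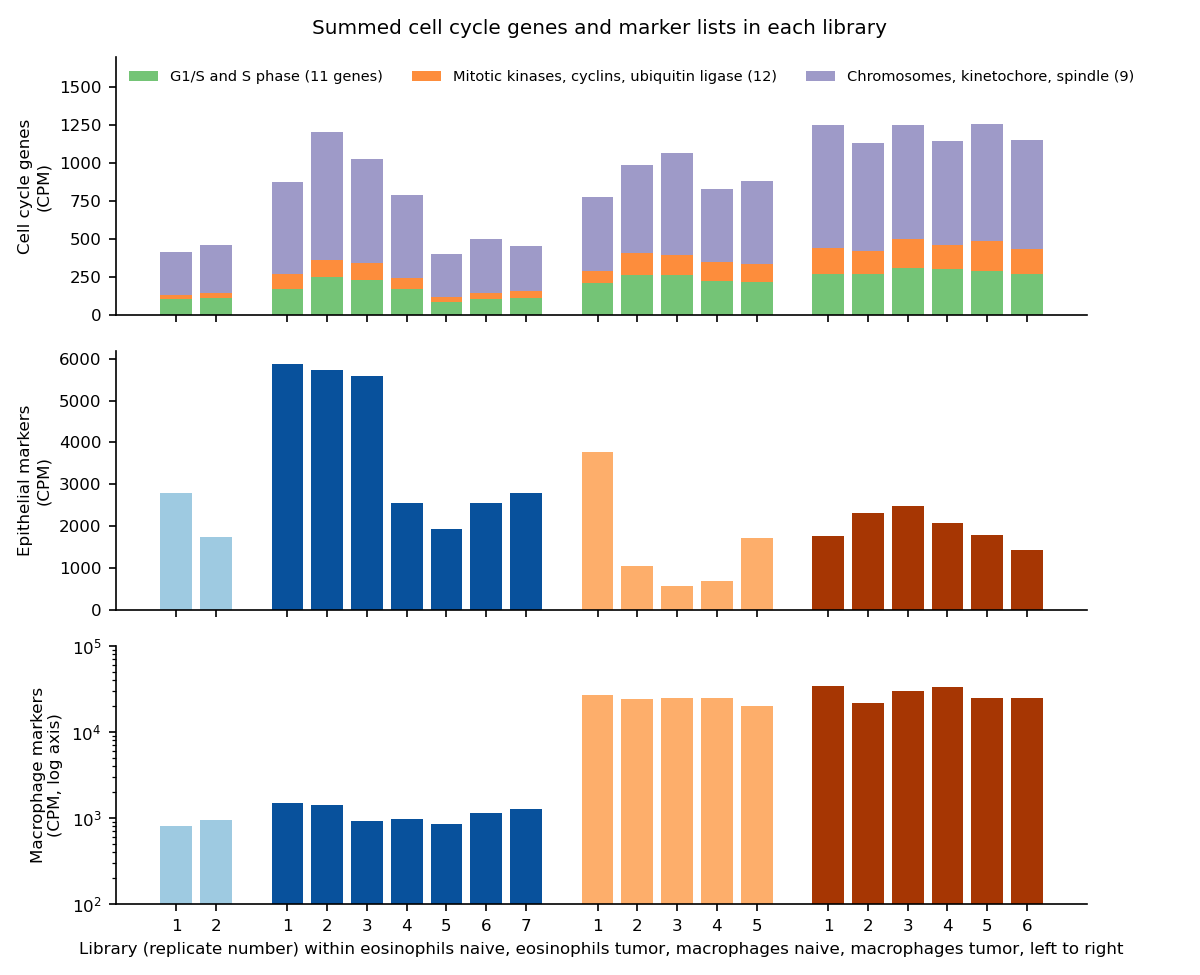
Summed CPM of the cell cycle genes by role (top, stacked bars), of epithelial markers (middle) and of macrophage markers (bottom, log axis) in each of the 20 libraries, ordered by group and replicate number. Cell cycle sums run from 405 to 1204 CPM in tumor eosinophils and from 1136 to 1259 in tumor macrophages (2369 to 6702 and 4511 to 5241 after joint scaling, where tumor eosinophil libraries 2 and 3 exceed every tumor macrophage library), and epithelial sums are highest in tumor eosinophil libraries 1 to 3.

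Tumor macrophages carried more Bub1b and Mcm4 transcript than macrophages from naive colon. Bub1b encodes BubR1, the checkpoint protein that holds anaphase until every kinetochore is attached (chr2:118598211-118641591, plus strand). Its 5 naive libraries measured 23.2, 40.4, 32.2, 44.5 and 18.2 normalised reads, and its 6 tumor libraries had 46.3, 76.0 and 103 as lowest, median and highest. The groups did not overlap, and the tumor group was higher by 1.22 ± 0.26 in log2 (limma, adjusted p = 0.004). Bub1b was called under all 17 alternatives run for macrophages, with adjusted p from 0.000702 to 0.0444.

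Mcm4, a subunit of the replicative helicase (chr16:15623897-15637400, minus strand), measured 30.3, 36.7, 36.0, 25.6 and 30.4 normalised reads in naive and 40.2, 51.4 and 72.2 (lowest, median, highest) in tumor macrophages. Again no tumor library fell among the naive ones. In log2 the rise was 0.71 ± 0.19 (limma, adjusted p = 0.0202). Leaving out naive library 4 or tumor library 5 moved that p to 0.0511 in each case.

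The 2 members called higher and 0 called lower, of 29 tested, stand beside 17.1% of all 11536 genes called, 8.49% higher and 8.61% lower, so the count lies below the background. In 2 members, the same pair, the groups did not overlap with tumor above naive, beside 5.19% of all genes, and in 0 with tumor below, beside 5.47%. The median log2 change was 0.24 and 26 of 29 lay above 0, beside 0.025 and 52.2% over all genes. Ccnb1, cyclin B1, and Cdk1, the kinase it activates, came next, at 0.47 ± 0.18 (adjusted p = 0.0959, limma) and 0.41 ± 0.16 (adjusted p = 0.102). Mki67 measured 378, 414, 539, 323 and 392 normalised reads in naive and 369, 506 and 624 (lowest, median, highest) in tumor macrophages. These overlapped, and the change of 0.24 ± 0.17 was not called (adjusted p = 0.355). Ube2c was at −0.13 ± 0.23 and Pcna at −0.24 ± 0.15.

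In CPM, naive macrophages held member sums of 777 to 1068, all below the 1136 to 1259 of tumor macrophages. On the deposited normalised scale the same sums ran from 3239 to 5070 and from 3932 to 5005 and overlapped, so the order of the groups depended on the scaling. Other marker lists moved between the macrophage groups. Neutrophil markers (36.1 to 55.1 CPM in naive, 92.3 to 601 in tumor) and mast cell markers (at most 32.8 in naive, 50.2 to 425 in tumor) were higher in every tumor than in every naive macrophage library, and the T and NK cell marker sum was lower (468 to 588 in naive, 117 to 235 in tumor). Most of that T and NK sum was Cd4 (384.5 to 524 CPM in naive, 71.0 to 176 in tumor). Of 7 T and NK markers tested, 1 was called lower and 0 higher, and 3 lay above 0. Of the markers tested, 5 of 14 epithelial ones were called higher and 2 lower, 2 of 8 monocyte ones higher and 3 lower, and 6 of 9 dendritic cell, 6 of 10 stromal and endothelial, 4 of 4 erythroid and 4 of 14 macrophage ones lower, with 0 higher in these 4 lists. B and plasma cell sums were 18540 to 76572 CPM in naive and 9585 to 73379 in tumor macrophages, with 1 of 15 called higher. The part of these transcripts in the result was not tested.

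**Figure D3:**
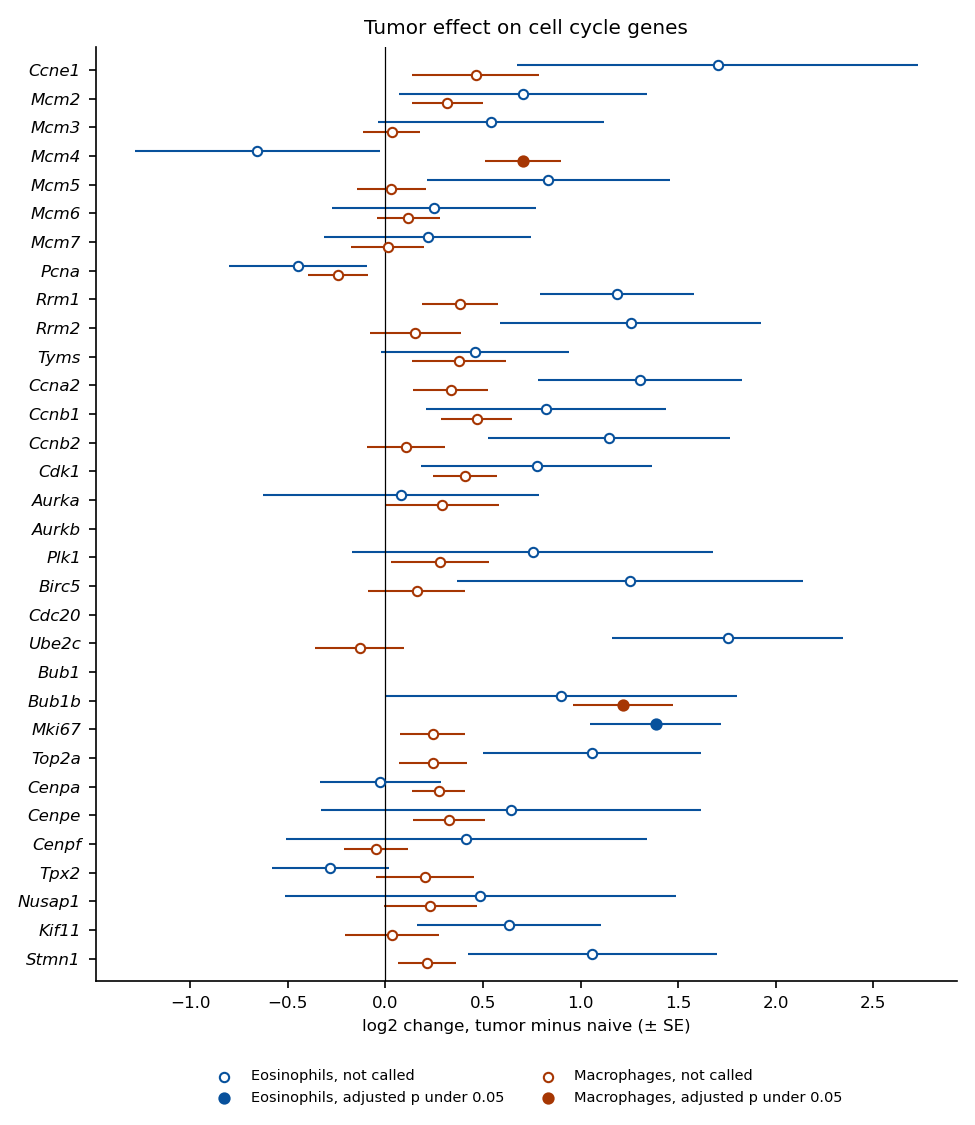
Log2 change from naive colon to tumor with its standard error for each of the 32 cell cycle genes in eosinophils (blue) and macrophages (brown), with filled points where the adjusted p was under 0.05. Mki67 is filled in eosinophils (1.38), and Bub1b (1.22) and Mcm4 (0.71) in macrophages, and eosinophil errors are wider; Aurkb, Cdc20 and Bub1 were not tested in either cell type.

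Whether the tumor change differed between the cell types was asked in 1 model of all 20 libraries, with reads scaled jointly. Of 31 members tested, 0 were called (of all 14992 genes 4.16% were, 1.87% higher and 2.29% lower), 3 had an unadjusted p under 0.05 by limma, edgeR called 0 and DESeq2 called 2. Ube2c was at 1.81 ± 0.62 (adjusted p = 0.1, limma) and Mki67 at 1.04 ± 0.35 (adjusted p = 0.101), both toward a larger rise in eosinophils. Those are the 2 that DESeq2 called. Mcm4 had the opposite sign, −1.48 ± 0.56 (adjusted p = 0.139), since its change was −0.66 in eosinophils and 0.71 in macrophages. Without tumor eosinophil libraries 1, 2 and 3, Mcm4 was called (−1.85, adjusted p = 0.039).

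In naive colon 13 of the 31 cell cycle genes tested were called lower in eosinophils than in macrophages, 1 was called higher and 17 were not called. After joint scaling to 4845747 reads, the mean level in eosinophils was a median of 39.8% of that in macrophages over the 32 members, from 12.5% (Mcm3) to 482% (Tpx2). Over the 14 macrophage markers, measured in the same way, that median was 1.34%, from 0 to 338% (Adgre1). These markers were chosen as macrophage genes, so a low median share was given by that choice. The part of macrophage transcripts in the member levels of eosinophils was not tested. The 1 call higher and 13 lower stand beside 30.2% of all genes called, 14.7% higher and 15.5% lower. In 1 member every eosinophil library lay above, beside 20.4% of all genes. In 18 members both naive eosinophil libraries lay below all 5 naive macrophage libraries, beside 21.2% of all genes, and the median log2 difference was −1.29, beside 0 over all genes.

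Mcm3, another subunit of the replicative helicase, gave the lowest share. It measured 15.2 and 9.09 jointly scaled reads in naive eosinophils and 71.2, 104, 105, 119 and 85.7 in naive macrophages. The values did not overlap, and the log2 difference was −2.92 ± 0.39 (adjusted p = 4.4e-06, limma). Mki67 was at 72.6 and 87.9 in naive eosinophils and 387, 463, 562, 358 and 395 in naive macrophages. It too was separate in each library, at −2.40 ± 0.29 (adjusted p = 1.09e-06). Ccna2 (−2.27 ± 0.41, adjusted p = 0.000151) and Ube2c (−2.76 ± 0.51, adjusted p = 0.000216) were lower as well. These 4 were called lower under all 27 alternatives.

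The other 9 genes called lower were Ccne1, Mcm5, Rrm1, Rrm2, Ccnb2, Cdk1, Birc5, Bub1b and Top2a, with log2 differences from −1.29 to −2.56. Each lost its call when naive eosinophil library 1 or 2 was left out. Mcm7, Pcna, Tyms and Cenpa were not called, at 0.11 ± 0.45, −0.21 ± 0.28, −0.20 ± 0.43 and 0.23 ± 0.26, with adjusted p from 0.562 to 0.889 by limma. Tyms, thymidylate synthase, measured 20.2 ± 0.753 jointly scaled reads in naive eosinophils (SD, n = 2) and 24.4 ± 7.92 in naive macrophages (n = 5).

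Tpx2, which activates Aurora A and nucleates spindle microtubules, was the 1 member called higher in eosinophils (chr2:152847964-152895321, plus strand, overlapping the gene of Mir5622 on the same strand). Its levels were 770 and 1089 jointly scaled reads in naive eosinophils and 201, 121, 260, 132 and 251 in naive macrophages. Tumor eosinophils held 523, 730 and 985 (lowest, median, highest) and tumor macrophages 171, 223 and 311. Every eosinophil library lay above every macrophage library. The log2 difference was 2.31 ± 0.33 in naive colon (adjusted p = 8.42e-06, limma) and 1.72 ± 0.22 in tumors (adjusted p = 1.25e-06), and it was called under every alternative run. Aurka, the kinase that Tpx2 activates, did not share that direction, with −0.89 ± 0.57 in naive colon (adjusted p = 0.26) and −1.21 ± 0.38 in tumors (adjusted p = 0.0134).

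In tumors the member levels of eosinophils were a median of 66.3% of those of macrophages, with 3.30% (1.77 to 108%) for the macrophage markers. Without the 3 tumor eosinophil libraries highest in epithelial markers, the median log2 difference was −1.29 in place of −0.86, and 22 members were called lower in place of 15. With all libraries Tpx2 was called higher and 15 members lower, of 31 tested, beside 43.1% of all genes called, 18.9% higher and 24.2% lower. In 1 member the tumor eosinophils lay wholly above, beside 8.02% of all genes. In 6 members (Mcm3, Mcm4, Ccna2, Aurkb, Bub1b and Mki67) all 7 tumor eosinophil libraries lay below all 6 tumor macrophage libraries, beside 12.2% of all genes. Aurkb, counted here and among the 15 called lower, passed the filter on low values only through macrophage libraries. The largest difference was that of Bub1b, with 1.93, 8.58 and 30.6 jointly scaled reads (lowest, median, highest) in tumor eosinophils and 51.9, 86.2 and 117 in tumor macrophages. Its log2 difference was −2.85 ± 0.46 (adjusted p = 2.94e-05, limma), and that of Mcm3 was −2.50 ± 0.26 (adjusted p = 7.53e-08). Mcm4 stood at 5.92, 13.1 and 26.5 in tumor eosinophils and 42.1, 58.6 and 82.1 in tumor macrophages, a difference of −2.10 ± 0.31 (adjusted p = 9.26e-06).

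Mki67, the member called higher in tumor eosinophils, was still lower there than in tumor macrophages. It had 107, 222 and 278 jointly scaled reads (lowest, median, highest) against 421, 553 and 699, a log2 difference of −1.37 ± 0.20 (adjusted p = 6.4e-06, limma). Mcm3, Mcm4, Ccna2, Cdk1, Aurka, Aurkb (admitted only through macrophages), Birc5, Bub1b and Mki67, 9 in all, were called lower under all 28 alternatives. The calls of Mcm2, Mcm6, Pcna, Rrm1, Ube2c and Nusap1 were each lost under some of them, those of Mcm2, Mcm6, Pcna and Rrm1 under median-of-ratios scaling of all libraries. Top2a, Stmn1, Cenpf and Plk1 were not called, at −0.64 ± 0.31, −0.44 ± 0.34, −0.39 ± 0.49 and 0.02 ± 0.52.

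**Figure D4:**
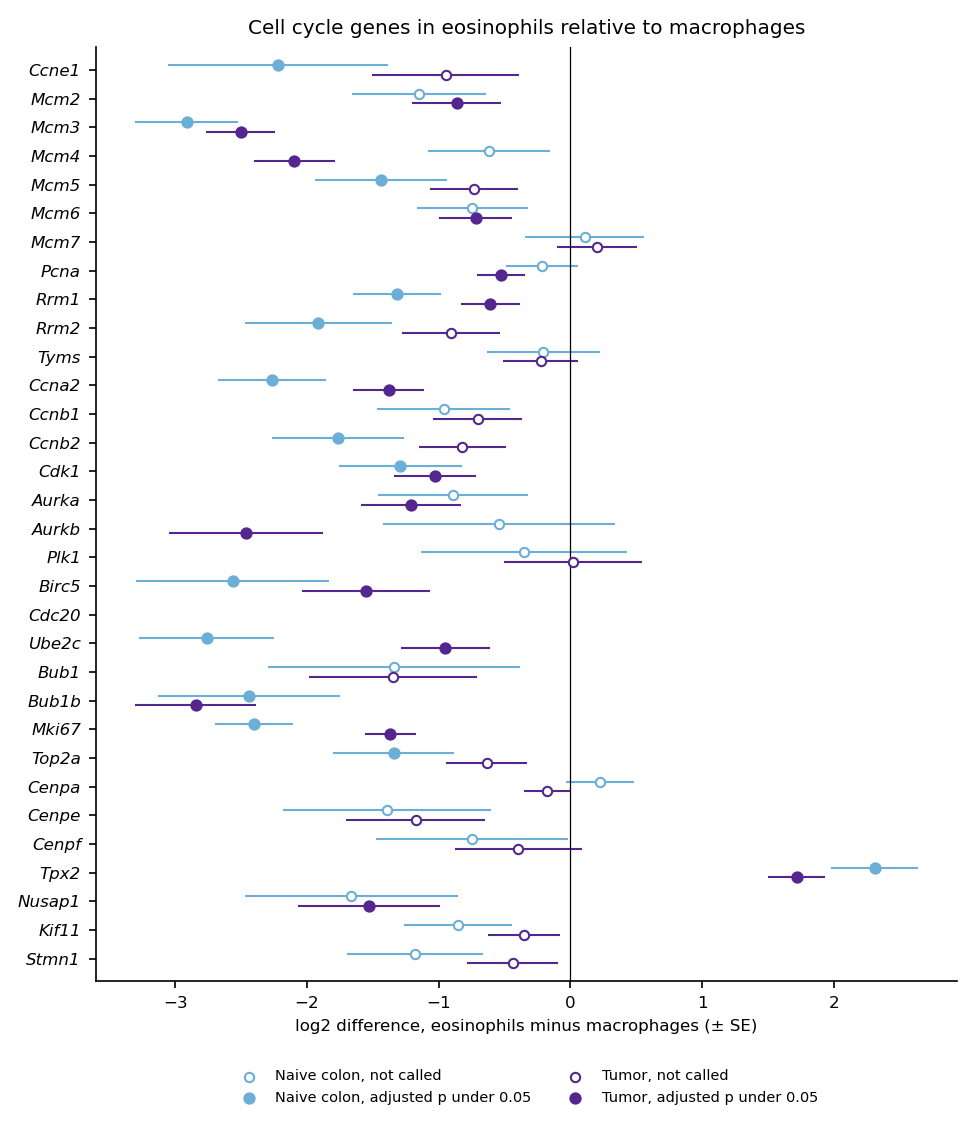
Log2 difference between eosinophils and macrophages with its standard error for the cell cycle genes after joint scaling, in naive colon (light) and in tumors (dark), with filled points where the adjusted p was under 0.05. Most points lie left of 0, Tpx2 lies at 2.31 and 1.72, and Cdc20 was not tested.

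Aurkb, Bub1 and Cdc20 had few reads. Aurkb, the kinase of the chromosomal passenger complex, had 11 reads in the 2 naive eosinophil libraries together and 18 in the 7 tumor ones, and its level in tumor eosinophils was lower than in tumor macrophages (−2.47 ± 0.59, adjusted p = 0.00167, limma). Its jointly scaled values ran from 0 to 4.38 in tumor eosinophils. Among eosinophils only a naive library, at 15.1, reached 10. Aurkb thus passed the joint filter on low values only through macrophage libraries, where it was higher. Cdc20, the activator of the anaphase-promoting complex, and Bub1, a checkpoint kinase, each had 2 reads in naive eosinophils, so changes of their level there were not detectable at this depth.

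Genes that license, copy and package DNA, outside the 32, were read next (42 genes). In eosinophils 3 of 35 tested were called higher in tumors and 0 lower: Fen1, the flap endonuclease of lagging-strand synthesis (2.92 ± 0.64, adjusted p = 0.0233, limma), Pole, a catalytic subunit of DNA polymerase epsilon (2.39 ± 0.60), and Chaf1b, a chromatin assembly factor subunit (2.79 ± 0.73). In macrophages 2 of 38 were called higher and 0 lower, namely Lig1, DNA ligase 1 (0.79 ± 0.13, adjusted p = 0.000754), and Chaf1b (0.99 ± 0.22, adjusted p = 0.00521). Their shares, 8.6% and 5.3%, lie beside the 4.63% and 17.1% of all genes. Fen1 had 4.06 and 0 normalised reads in naive eosinophils and 12.4 to 20.1 in tumor eosinophils, so it passed the filter on low values only through tumor libraries. The naive values of Pole and Chaf1b are not printed here, and the same limit may hold for them. Between cell types, 16 of 40 were lower in naive eosinophils than in naive macrophages and 27 of 40 in tumors, beside 15.5% and 24.2% of all genes called lower, and Slbp, the histone mRNA-binding protein, was the 1 called higher in each.

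Of 68 further mitosis genes, 67 were in the tables. In eosinophils 1 of 55 tested was called higher in tumors, Cenpm, a centromere protein (4.10 ± 0.91, adjusted p = 0.0242, limma), and 0 lower, which is 1.8% beside 4.63% of all genes. The naive values of Cenpm are not printed here, and it may have passed the filter on low values only through tumor libraries. In macrophages 2 of 60 were higher and 2 lower, 6.7% beside 17.1% of all genes: Lmnb1, the lamin B1 of the nuclear lamina (1.45 ± 0.22, adjusted p = 0.000291), and Kif2c, a microtubule-depolymerising kinesin (1.67 ± 0.52), rose, while Pttg1, securin (−0.80 ± 0.19), and Hjurp, the chaperone of Cenpa (−0.53 ± 0.16), fell. Between the cell types, 4 of 65 were higher and 23 lower in naive eosinophils, and 4 were higher and 29 lower in tumor eosinophils. These are 41.5% and 50.8% of the list, beside 30.2% and 43.1% of all genes. Cks2, a Cdk1-binding subunit (2.29 ± 0.30 and 2.24 ± 0.20), Pttg1 (1.34 ± 0.28 and 1.19 ± 0.18) and Lmnb1 (2.54 ± 0.38 and 0.82 ± 0.25) were higher in eosinophils in both states, as Tpx2 was.

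The G1 machinery and the brakes on it showed calls in both directions. Of 28 genes tested for G1 cyclins, their kinases and the Rb-E2F group in eosinophils, E2f2 was called higher in tumors (1.75 ± 0.42, adjusted p = 0.0348, limma), and Cdk6 (−2.10 ± 0.31, adjusted p = 0.00371) and Cdk2 (−1.96 ± 0.47, adjusted p = 0.0323), the kinases of cyclins D and E, were lower. These 3 calls are 10.7% of the list, beside 4.63% of all genes. Cdk6 measured 508 and 635 normalised reads in naive and 90.4 to 180 in tumor eosinophils. In macrophages 2 of 28 were called, Ccnd3, cyclin D3 (−0.80 ± 0.24), and Wee1, the kinase that restrains Cdk1 (−1.10 ± 0.24), both lower, or 7.1% beside 17.1% of all genes. Between the cell types, 5 of 30 were higher and 8 lower in naive eosinophils than in naive macrophages, with the same counts in tumors. These are 43.3% of the list in each state, beside 30.2% and 43.1% of all genes.

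Among 22 cyclin-dependent kinase inhibitors and antiproliferative genes, 3 of 20 tested were lower in tumor than in naive eosinophils and 0 higher, or 15.0% beside 4.63% of all genes. These were Mdm2, the ligase of p53 (−1.46 ± 0.30, adjusted p = 0.0168, limma), Gadd45a, a growth arrest gene (−1.30 ± 0.32), and Btg2, an antiproliferative cofactor (−1.15 ± 0.30). Mdm2 restrains p53 and is thus not itself a brake on division. The 10 calls just named in eosinophils, across the 4 lists, were each lost without naive library 2. In macrophages Gadd45a rose (1.75 ± 0.27, adjusted p = 0.000409), as did Ccng2, cyclin G2 (0.57 ± 0.16), and Sesn1, a sestrin, fell (−1.15 ± 0.34), 3 calls in 21, or 14.3% beside 17.1% of all genes. In naive colon 10 of 22 were higher in eosinophils than in macrophages and 2 lower, beside 14.7% and 15.5% of all genes. Those higher included Cdkn1b, the inhibitor p27 (2.32 ± 0.30, adjusted p = 1.93e-06), Cdkn2d, the inhibitor p19 (2.09 ± 0.32, adjusted p = 2.34e-05), and Gadd45a (4.43 ± 0.38, adjusted p = 5.53e-09). In tumors 4 were higher, with Cdkn1b at 1.45 ± 0.20 and Cdkn2d at 1.54 ± 0.21, and 4 lower, together 36.4% beside 43.1% of all genes.

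Some of these values cannot be assigned to 1 gene with certainty. Of the members, 13 overlap another gene in GENCODE M21, 10 of them a gene on the other strand (for example Ube2c with Tnnc2, and Mki67 with Gm45240), and Pcna, Tyms, Ccnb1 and Ccnb2 have a named pseudogene. Whether counting used the strand was not given in the sources used here.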

How the data were processed

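The values are normalised reads, a signal per gene and library that the authors deposited in separate tables for eosinophils and macrophages. Tools listed in the submitters' processing notes are DESeq2 1.14.1, HTSeq 0.6.1, Bowtie2 2.2.6, TopHat2 2.1.0, FastQC 0.11.5 and Trim Galore, with the build GRCm38.p5. Per the labels' protocols 3 technical replicates with differing primer pools were made from every sample, and the sources used here do not say how they were combined. Values were whole multiples of 1 step per library: 374526 of 374526 non-zero values (100.0%) came out whole within 0.1 read, which returned the read counts and depth. Entries with a bare number for a name numbered 27.

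The plan was limma if the tables held normalised values and edgeR if they held raw counts. Values were tested as log2(value + 1) with limma 3.58.1 (eBayes with trend, two-sided, R 4.3.3), which understates the change of low genes. Genes were kept at 10 in at least 2 eosinophil or 5 macrophage libraries (2 of 20 jointly), and p-values were adjusted by Benjamini-Hochberg over all genes tested. With 2 naive and 7 tumor eosinophil libraries, that filter admits genes high only in tumor more readily than genes high only in naive eosinophils. The shares over all genes passed the same filter. The tables were scaled separately, so cell types were compared on recovered reads scaled together by TMM (edgeR 4.0.16). Alternatives were pseudocounts of 5 and 0.5, no filter, edgeR's quasi-likelihood test and DESeq2 1.42.0 on recovered reads, a replicate block, median-of-ratios joint scaling, each library left out and, added after the data were seen, 3 tumor eosinophil libraries left out. The script was tested on simulated data. No libraries were duplicates.

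All members could be named. Of the 4 lists of other cell cycle genes, the genes called for the tumor change or its difference between cell types were named, at most 6 per list and direction by p. Of the genes called in naive or tumor eosinophils against macrophages, only some were named. The members and lists were chosen with earlier results of these data known. Coordinates are from GENCODE M21 (GRCm38), and promoter sequences are RefSeq's (GRCm38.p6).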

Additional observations from a re-analysis of the deposited data

Results flagged for a closer look

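Among 96 sets of 5 to 7 libraries, 1 per member and group, 6 held a library set apart from the others of its group by Dixon's test at 95%. Chance sets about 1 in 20 such groups apart. In tumor macrophages, library 4 had 102 normalised reads of Mcm6 (102.19) while the others had 129 to 141, and library 1 had 12.24 of Cdc20, from 7 reads, while the others had 2.07 to 5.83. In tumor eosinophils, library 6 had 27.95 of Bub1, from 13 reads, while the others had 0 to 4.09, and library 4 had 244.69 of Cenpa while the others had 126 to 154. In naive macrophages, library 3 had 118.38 of Cenpe while the others had 62.4 to 78.1, and 631.78 of Stmn1 while the others had 383 to 444.

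The tumor change differed between eosinophils and macrophages (limma on the difference, adjusted p under 0.05) for 12 of the other cell cycle genes. By list these were 1 of 40 tested for replication, 3 of 65 for mitosis, 4 of 30 for the G1 group and 4 of 22 for the inhibitors, beside 4.16% of all genes. In log2 units, eosinophils minus macrophages, the difference was 3.80 for Cenpm, 2.35 for Fen1 and 1.67 for E2f2. It was −3.16 for Gadd45a, −2.03 for Cdk6, −1.97 for Tfdp1 (−1.965), −1.83 for Cdk2, −1.75 for Ccng2, −1.72 for Lmnb1, −1.71 for Espl1, −1.49 for Tob2 and −1.40 for Mdm2. Cdk6 and Gadd45a were called under all 28 alternatives, and the other 10 lost their call without naive eosinophil library 2.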

How the results depend on the processing

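Counts of members called depended on the setting. In eosinophils the count of 1 became 0 with no filter on low values, 0 without the 3 tumor libraries highest in epithelial markers and 7 with the replicate block (median log2 change 1.45, 27 of 29 above 0), and it was 0 to 1 with each library left out. Tumor eosinophil libraries 3 to 7 have no naive library of the same number. The change under the block therefore rests on libraries 1 and 2 of each group and is not the same comparison. Tumor libraries 1 and 2 are among the 3 highest in epithelial markers. In macrophages the count of 2 became 1 with the replicate block (Mcm4, adjusted p = 0.0966, limma) and 1 to 2 with each library left out. For the difference between cell types the count of 0 became 2 with DESeq2, 1 without the 3 tumor eosinophil libraries and 0 to 2 with each library left out. Between cell types, leaving out each library gave 7 to 16 members in naive colon, where 14 were called, and 10 to 20 in tumors, where 16 were called. Without the 3 tumor eosinophil libraries, 22 were lower and 1 higher in tumors. No called value changed sign under any alternative run. Over all genes, the 601 called in eosinophils became 1363 with DESeq2, 1130 with the replicate block, 953 without naive library 1 and 93 without naive library 2. The 1972 in macrophages became 1233 with the block, and the 624 for the difference became 1053 with DESeq2, 405 with no filter, 1778 without naive eosinophil library 1, 168 without naive eosinophil library 2 and 924 without the 3 tumor libraries. The median log2 change of all genes moved from 0.008 to 0.12 with edgeR in eosinophils, for the difference from −0.071 to 0.169 with DESeq2, 0.071 with edgeR and 0.061 with median-of-ratios scaling, and for tumor eosinophils against tumor macrophages from −0.062 to 0.185, 0.125 and 0.041. The labels tie no replicate number to an animal or batch, and the check of whether the numbers pair the libraries differed by cell type: deviations of same-numbered libraries correlated at 0.137 and 0.148 in eosinophils (2 pairs) and −0.306 to 0.054 in macrophages, where 0 of 5 correlated best with their own number. In eosinophils 2 of 2 did. The 2 naive eosinophil libraries deviate from their mean by equal and opposite amounts, so these 2 matches are not independent. Between tumor eosinophils and tumor macrophages 3 of 6 correlated best with their own number (−0.100 to 0.205), a hint from the data and not from the design. With 2 naive eosinophil libraries and few reads of many members there, small changes were not detectable.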
